A study of Mus musculus with 25 samples.

Results

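RNA levels of 7 genes were followed in pituitary tumors of sh*Rb* mice: *Pomc*, the hormone precursor gene of melanotrophs and corticotrophs, and 6 pituitary transcription factor genes studied with it, *Tbx19*, *Pax7*, *Neurod1*, *Pitx1*, *Lhx3* and *Isl1*. They were taken by symbol, and all 7 were present among the 15315 genes of a long-term table and the 14007 genes of a short-term table. sh*Rb* mice carry rtTA at *Rosa26*, a locus active in most tissues, so that knock-down is not restricted to the pituitary, and a GFP-linked shRNA against *Rb* at *Col1a1* that is switched on by doxycycline (dox). They descend from 1 embryonic stem cell clone, sh*Rb*5-4. All 25 mice carried both transgenes and had received dox as adults, so neither table holds a pituitary that never lost RB. The long-term table has 3 females after 6 weeks on dox (6w+dox), 2 females and 2 males after 12 weeks on dox (12w+dox), and 3 females and 2 males given dox for 6 weeks and then none for 6 weeks (12w-res). The short-term table has 3 males after 16 weeks on dox (16w+dox) and mice in which dox was withdrawn at that point for 1 day (1d-dox, 4 females), 3 days (3d-dox, 3 males) or 5 days (5d-dox, 3 females). Sex and time off dox cannot be told apart at 1 and 5 days.

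POMC is cut by prohormone convertases into ACTH in corticotrophs of the anterior lobe and further into α-MSH and β-endorphin in melanotrophs of the intermediate lobe, where tumors arise when mice lose RB. TBX19 (Tpit) is the T-box factor that activates *Pomc* in both cell types, and PAX7 is the pioneer factor that sets the melanotroph program. PITX1 and LHX3 are homeodomain factors shared by the anterior pituitary lineages, NEUROD1 is a basic helix-loop-helix factor of early corticotrophs, and ISL1 is a LIM homeodomain factor of thyrotrophs and gonadotrophs.

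Values are the deposited FPM, reads on a gene scaled to library depth with size factors. Reads on genes numbered 19066053 to 28968476 in the long-term libraries, which were poly(A)-enriched, and 9573101 to 13036900 in the short-term libraries, which were depleted of rRNA, and no test was made between the tables. *Rb1*, the target of the shRNA, was at 1.86 to 5.09 FPM in the 6w+dox mice, at 2.42 to 4.05 FPM in the 12w+dox mice and at 16.1 to 20.3 FPM in the 12w-res mice. The long-term labels of mice on and off dox thus fitted. *Rb1* overlapped between the groups on dox, so it does not check 6 against 12 weeks. In the short-term table mean *GFP* went from 1246.5 ± 192 FPM (SD, n = 3) on dox to 11.7 ± 3.08 FPM (n = 3) after 5 days without it, while *Rb1* was at 4.19 ± 0.709 and 5.12 ± 0.239 FPM. *Pomc* exceeded the summed somatotroph genes (*Gh* and *Ghrhr*) and the lactotroph gene *Prl* in every mouse.

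The 250 bases before the start sites of *Pomc*, of its activator *Tbx19*, and of *Pax7* and *Neurod1*, the 2 factor genes that passed the test below, are shown because these proteins read short motifs near genes. They come from RefSeq (build GRCm38.p6), which gave such a stretch for 6 of the 7 genes, and are written 5′ to 3′ along the gene. Capitals mark matches on either strand to an E-box (CANNTG), a Pitx-type site (TAATCC), a T-box site (TCACACC) or a homeodomain core (TAAT, which the Pitx-type site contains).
Pomc, chr12:3954695-3954944, plus strand: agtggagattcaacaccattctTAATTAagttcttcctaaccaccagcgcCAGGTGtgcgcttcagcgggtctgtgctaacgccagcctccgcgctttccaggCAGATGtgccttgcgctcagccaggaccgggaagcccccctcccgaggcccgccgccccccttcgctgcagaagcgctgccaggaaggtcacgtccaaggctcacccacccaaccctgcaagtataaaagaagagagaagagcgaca
Tbx19, chr1:165160774-165161023, minus strand: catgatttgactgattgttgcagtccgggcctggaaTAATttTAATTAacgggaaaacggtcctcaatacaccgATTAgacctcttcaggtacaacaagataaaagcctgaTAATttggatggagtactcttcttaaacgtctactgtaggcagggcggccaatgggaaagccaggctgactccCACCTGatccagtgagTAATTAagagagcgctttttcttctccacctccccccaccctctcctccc
Pax7, chr4:139832969-139833218, minus strand: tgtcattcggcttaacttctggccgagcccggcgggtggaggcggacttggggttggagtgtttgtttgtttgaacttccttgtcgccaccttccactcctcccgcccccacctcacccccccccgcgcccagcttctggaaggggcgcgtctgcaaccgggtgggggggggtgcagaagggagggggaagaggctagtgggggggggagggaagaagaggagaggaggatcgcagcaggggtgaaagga
Neurod1, chr2:79456637-79456886, minus strand: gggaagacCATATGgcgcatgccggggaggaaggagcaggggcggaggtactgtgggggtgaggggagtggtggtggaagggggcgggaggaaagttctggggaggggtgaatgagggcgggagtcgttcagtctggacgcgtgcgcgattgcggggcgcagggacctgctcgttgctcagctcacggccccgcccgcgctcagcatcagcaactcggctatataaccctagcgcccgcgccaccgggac

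The *Pomc* stretch held 2 E-boxes, which start 200 and 147 bases before the start site, and 2 overlapping homeodomain cores. *Tbx19* had 1 E-box and 7 homeodomain cores, *Neurod1* had 1 E-box, and *Pax7* had no match. The *Pax7* stretch lies inside the gene body given below, before an internal start, so bases before the outer end of *Pax7* were not searched. Of all 32851 RefSeq stretches of this length, 66.2% held the E-box, 54.9% the homeodomain core, 6.25% the Pitx-type site and 3.33% the T-box site. A match describes letters and is not evidence of binding. In the same annotation the gene bodies lie at chr12:3954945-3960643 (*Pomc*), chr1:165137834-165160773 (*Tbx19*), chr4:139737059-139833530 (*Pax7*), chr2:79452637-79456636 (*Neurod1*), chr13:55825044-55836190 (*Pitx1*), chr2:26200212-26208249 (*Lhx3*) and chr13:116298270-116309688 (*Isl1*).

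*Pomc* was higher in restored tumors than in any tumor on dox. In the 6w+dox mice it stood at 376655, 199141 and 107477 FPM, and in the 12w+dox mice at 152371, 194592, 127989 and 93231 FPM. In the 12w-res mice it stood at 494555, 452682, 495137, 573321 and 483817 FPM. Every 12w-res mouse was above every mouse on dox, and the groups on dox overlapped. As a share of the summed gene signal of a library, *Pomc* took 32.2, 19.97 and 13.6% in the 6w+dox mice and 19.2, 23.05, 17.1 and 12.9% in the 12w+dox mice. In the 12w-res mice it took 40.2, 39.1, 41.04, 43.2 and 40.1%, a narrow range that held both sexes.

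**Figure D1:**
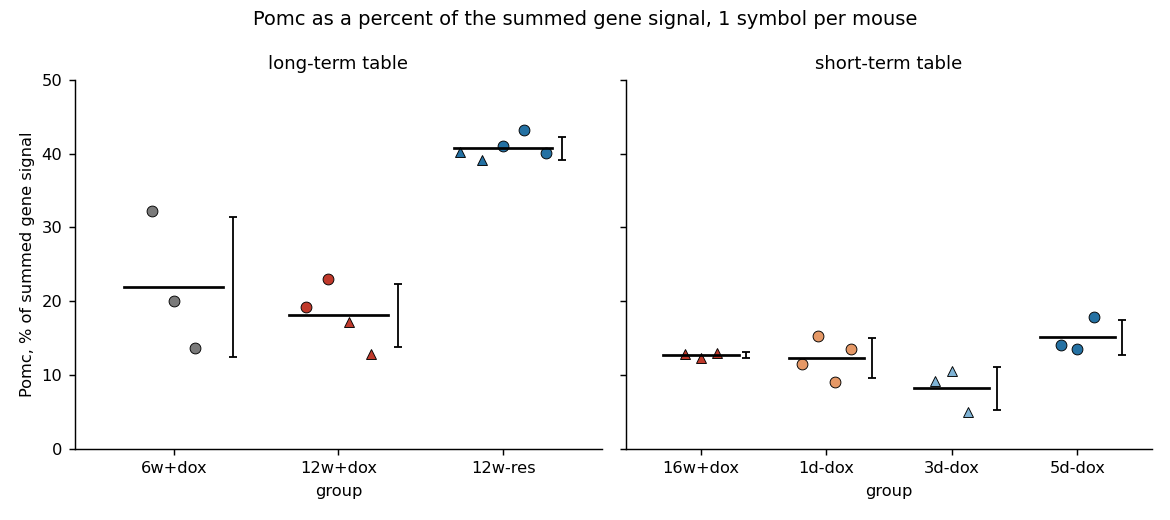
Percent of the summed gene signal taken by *Pomc* in each mouse of the long-term and the short-term table, with circles for females, triangles for males, lines for group means and whiskers for 1 SD. The 12w-res mice sit between 39.1% and 43.2%, above all mice on dox, and the 3d-dox mice sit below the 16w+dox mice.

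The mean share was 40.7% ± 1.56 in the 12w-res group (SD, n = 5) and 18.1% ± 4.24 in the 12w+dox group (n = 4). The difference was 22.7 points (exact two-sided permutation p = 0.00794, the smallest that 5 mice against 4 allow). Against 21.9% ± 9.43 in the 6w+dox group (n = 3) it was 18.8 points (exact permutation p = 0.0179, again the smallest possible). Between the groups on dox the difference of the later from the earlier was -3.85 points (exact permutation p = 0.514, smallest possible 0.0286), and without 6w+dox replicate 1, the mouse with the highest share there, it was 1.28 points.

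In FPM, mean *Pomc* was 3.52 times as high in the 12w-res group as in the 12w+dox group, a log2 difference of 1.86. limma with a trended prior variance, the main test, gave it an adjusted p of 0.663. At the level of *Pomc* that trend set a prior variance of 56.9, where the residual variance of the gene was 0.255 and the median prior of all genes 0.0562. With an untrended prior, chosen after these values were seen, limma gave a 95% interval of 1.21 to 2.51 and an adjusted p of 0.000555. The adjusted p was 0.00125 with edgeR and 1.22e-09 with DESeq2, both on recovered reads. Against the 6w+dox group the log2 difference was 1.31, with adjusted p-values of 0.79 (trended limma), 0.00899 (untrended limma), 0.0322 (edgeR) and 0.000996 (DESeq2). Scaling by total reads moved the median of all genes by -0.61 between the 12w-res and 12w+dox groups, and *Pomc* then differed by 1.20 (adjusted p = 0.0144, trended limma). In bulk tissue, fewer cells of a type and less RNA per cell cannot be told apart.

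The enzymes that process POMC were also higher in restored tumors. Of 9 other melanotroph and corticotroph markers, 3 rose and 0 fell between the 12w+dox and 12w-res groups at an adjusted p under 0.05 and a log2 change over 1 (limma), where 11.3% of all genes were called. *Pcsk1*, the convertase that releases ACTH, rose by 1.89 on the log2 scale (SE 0.156, adjusted p = 7.54e-07), from 62.9 ± 14.8 to 229.8 ± 26.97 FPM. *Pcsk2*, the convertase that cuts ACTH further, rose by 1.37 on the log2 scale (SE 0.2895, adjusted p = 0.00218), from 2374 ± 528 to 6065 ± 594 FPM. *Pam*, which amidates peptides, rose by 1.65 on the log2 scale (SE 0.169, adjusted p = 5.80e-06), from 337 ± 97.1 to 1027 ± 78.8 FPM. Against the 6w+dox group all 3 enzymes were also called higher and 2 of the 9 markers lower, where 11.6% of all genes were called. The PCSK2 chaperone gene *Scg5* and the carboxypeptidase gene *Cpe* differed by 0.92 (SE 0.189, adjusted p = 0.00181) and 0.81 (SE 0.208, adjusted p = 0.00742), past the adjusted p and short of the fold. So did *Drd2* in the other direction, by -0.45 (SE 0.159, adjusted p = 0.0361), from 571 ± 118 to 413 ± 59.1 FPM. The median log2 change of the 9 markers was 0.81, and that of all genes was -0.004.

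Between 6 and 12 weeks on dox, 1 of these 9 markers rose and 1 fell, where 7.2% of all genes were called. *Drd2*, the dopamine receptor that restrains melanotrophs, rose by 1.32 on the log2 scale (SE 0.181, adjusted p = 0.00048), from 225 ± 25.3 to 571 ± 118 FPM. *Crhr1*, the corticotroph receptor for CRH, fell by 1.80 on the log2 scale (SE 0.387, adjusted p = 0.00599), from 18.98 ± 6.81 to 5.14 ± 1.95 FPM. *Avpr1b*, the corticotroph vasopressin receptor, differed by -1.54 (SE 0.625, adjusted p = 0.0902) and missed the threshold. In the 12w-res group against the 6w+dox group it fell by 1.80 on the log2 scale (SE 0.598, adjusted p = 0.0316), and *Crhr1* fell by 1.83 on the log2 scale (SE 0.3696, adjusted p = 0.00188). *Avpr1b* was at 1.11 to 9.73 FPM in the 6w+dox mice. In the 12w-res mice it was at 0.221 to 2.42 FPM (4 to 41 reads), so these groups overlapped. All listed genes called in the long-term table kept their sign under the other 3 scalings.

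**Figure D2:**
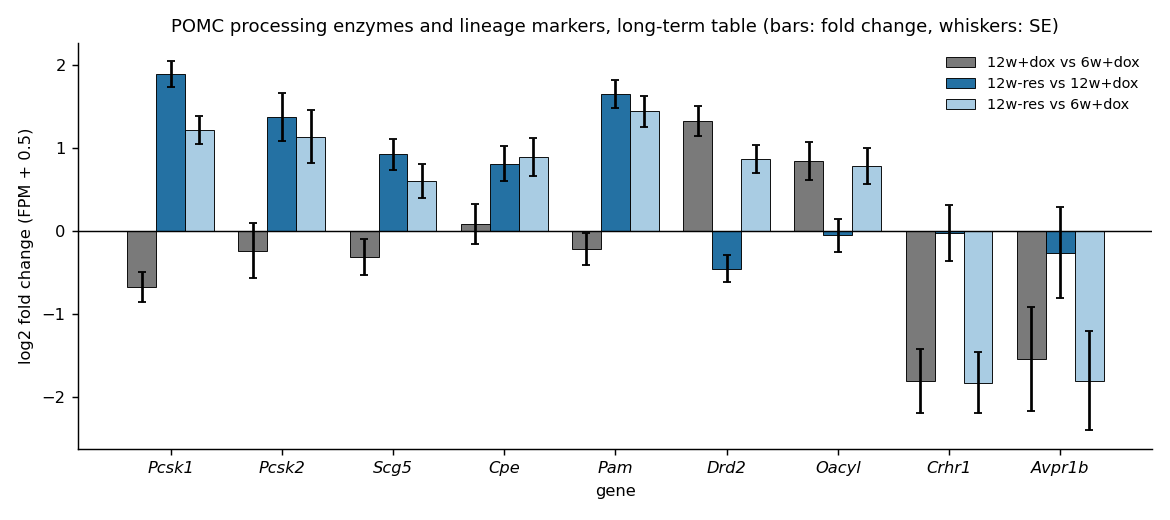
Log2 fold changes on the log2(FPM + 0.5) scale, with standard errors as whiskers, of the 9 melanotroph and corticotroph markers in the 3 long-term comparisons, which share groups. *Pcsk1*, *Pcsk2* and *Pam* are high in 12w-res mice against both groups on dox, *Drd2* is high at 12 against 6 weeks on dox (1.32), and *Crhr1* is low (-1.80).

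*Tbx19*, the activator of *Pomc*, showed no rise beside it. It stood at 334, 322 and 259 FPM in the 6w+dox mice and at 213, 244, 206 and 305 FPM in the 12w+dox mice. The 12w-res mice had 201, 183, 241, 243 and 223 FPM, below all 6w+dox mice and overlapping the 12w+dox mice. The log2 difference of the 12w-res from the 12w+dox group was -0.14 (SE 0.137, 95% interval -0.43 to 0.16, adjusted p = 0.455) by limma, and its interval lies below the 1.86 of *Pomc*. Against the 6w+dox group it was -0.48 (SE 0.149, adjusted p = 0.0235), under the fold threshold. Between the groups on dox it was -0.34 (SE 0.156, adjusted p = 0.129). With scaling by total reads these 3 differences were -0.79, -0.81 and -0.016, where all genes shifted by -0.61, -0.33 and 0.29. As a ratio within a mouse, which no library scaling alters, *Pomc* FPM was 2053 to 2468.5 times *Tbx19* FPM in the 12w-res mice, 306 to 797 times in the 12w+dox mice and 414 to 1128 times in the 6w+dox mice.

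*Pax7* rose with time on dox. It stood at 106, 117 and 109 FPM in the 6w+dox mice and at 241, 278, 224 and 393 FPM in the 12w+dox mice. The groups did not overlap, and the highest 12w+dox mouse was a male. The log2 change was 1.32 (SE 0.161, 95% interval 0.98 to 1.66, adjusted p = 0.000243) with limma, a 2.57-fold ratio of mean FPM. Of the 7 genes, 2 were called between the groups on dox (*Pax7* higher and *Neurod1* lower), where 7.2% of all genes were, and limma at an adjusted p alone passed 3, where 22.4% of all genes passed. edgeR, DESeq2 and untrended limma each called 2 of 7 as well, against 8.42%, 9.48% and 7.05% of genes. For 3 of the 7 the groups did not overlap, against 25.2% of genes. In females alone 1 of the 7 was called, *Pax7*, and the share of all genes called was not taken there.

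After RB was restored *Pax7* lay between the groups on dox. It stood at 200, 233, 195, 223 and 213 FPM, above every 6w+dox mouse, and 4 of the 5 mice were below every 12w+dox mouse. The log2 difference from the 6w+dox group was 0.94 (SE 0.154, adjusted p = 0.000395), just under the fold threshold (limma). The log2 difference from the 12w+dox group was -0.38 (SE 0.141, adjusted p = 0.0453), and with scaling by total reads it was -1.04, where all genes shifted by -0.61.

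Between the 12w-res and 12w+dox groups limma called 0 of the 7 genes, where 11.3% of all genes were called. At an unadjusted p under 0.05 there were 2 (*Pax7* and *Pitx1*), where 7249 of all 15315 genes were. Both passed an adjusted p alone, as 37.8% of all genes did. edgeR, DESeq2 and untrended limma each called 1, *Pomc*, against 14.1%, 14.6% and 11.2% of genes. *Pomc* was also the 1 gene of the 7 whose groups did not overlap, against 34.5% of genes.

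The ratio of *Pax7* to *Tbx19* FPM within a mouse was 0.319 to 0.4204 in the 6w+dox mice, 1.09 to 1.29 in the 12w+dox mice and 0.809 to 1.27 in the 12w-res mice. Every later mouse thus had a higher ratio than any mouse at 6 weeks. These ratios were chosen after the values were seen and were not tested.

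*Neurod1* was low and fell with time on dox. It stood at 5.88, 8.28 and 12.7 FPM in the 6w+dox mice, and at 4.57, 0.816, 2.09 and 1.82 FPM in the 12w+dox mice. In the 12w-res mice it stood at 3.85, 2.59, 2.41, 0.472 and 1.44 FPM. All 6w+dox mice were above all later mice, and the later groups overlapped. The log2 change between the groups on dox was -1.84 (SE 0.489, adjusted p = 0.0168) with limma. Without 6w+dox replicate 2 it was -1.86 and the call was lost (adjusted p = 0.057). Against the 6w+dox group the 12w-res group differed by -1.94 (SE 0.468, adjusted p = 0.00589). These values rest on 101 to 306 reads a library in the 6w+dox group, 28 to 131 in the 12w+dox group and 8 to 74 in the 12w-res group.

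*Neurod1* was the 1 gene of the 7 that limma called between the 12w-res and 6w+dox groups, against 11.6% of all genes, and 5 passed an adjusted p alone, against 33.8%. edgeR, DESeq2 and untrended limma each called 2, against 13.7%, 14.4% and 11.6% of genes. In this comparison the groups did not overlap for 6 of the 7 genes, against 32.7% of genes.

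The related gene *Neurod4* was also low after restoration. It fell by 1.45 on the log2 scale (SE 0.419, adjusted p = 0.0142) from the 12w+dox to the 12w-res group, where it was at 6.22 ± 3.03 FPM, and against the 6w+dox group it fell by 2.41 on the log2 scale (SE 0.457, adjusted p = 0.0012). *Tcf3*, which codes for E-protein partners of such factors, fell by 1.00 on the log2 scale (SE 0.0933, adjusted p = 2.92e-06) between the 6w+dox and 12w-res groups, from 103 ± 4.14 to 51.1 ± 3.23 FPM.

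The shared homeodomain genes were lower in the 12w-res than in the 6w+dox group by less than the fold threshold. *Pitx1* stood at 243, 219 and 191 FPM in the 6w+dox mice and at 159, 199.7, 194 and 193 FPM in the 12w+dox mice. In the 12w-res mice it stood at 166, 133, 117, 118 and 126 FPM, where 1 male reached the 12w+dox range and no mouse reached the 6w+dox range. The log2 difference of the 12w-res group was -0.50 (SE 0.123, adjusted p = 0.00542) from the 12w+dox group and -0.72 (SE 0.134, adjusted p = 0.000971) from the 6w+dox group (limma). With scaling by total reads these became -1.16 and -1.05, past the fold threshold, where all genes shifted by -0.61 and -0.33. Between the groups on dox it was -0.22 (SE 0.1396, adjusted p = 0.273), and it turned positive with scaling by total reads (0.11) or by total reads without *Pomc* (0.031).

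*Lhx3* stood at 187, 176 and 216 FPM in the 6w+dox mice and at 137, 151, 143 and 144 FPM in the 12w+dox mice. The 12w-res mice had 117, 129, 143, 149 and 146 FPM. The 6w+dox mice were above all others, and the later groups overlapped. The log2 difference from the 6w+dox group was -0.42 (SE 0.113, adjusted p = 0.0185) for the 12w+dox group and -0.50 (SE 0.108, adjusted p = 0.00315) for the 12w-res group (limma). With scaling by total reads the first was -0.093 and by total reads without *Pomc* -0.17 (adjusted p = 0.676 and 0.335), where all genes shifted by 0.29 and 0.22. Between the later groups it was -0.077 (SE 0.0995, 95% interval -0.29 to 0.14, adjusted p = 0.572), and with total reads -0.73.

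*Isl1* varied widely among mice on dox. It stood at 5.88, 11 and 13.8 FPM in the 6w+dox mice and at 16.1, 1.14, 4.71 and 3.798 FPM in the 12w+dox mice. Restored tumors had 6.29, 6.02, 6.099, 5.96 and 5.91 FPM. The 12w+dox mice held both the lowest and the highest value of the table, and the 12w-res mice lay close together. The log2 differences were -1.03 (SE 0.5305, adjusted p = 0.175) between the groups on dox, 0.40 (SE 0.466, adjusted p = 0.524) between the 12w-res and 12w+dox groups and -0.63 (SE 0.507, adjusted p = 0.36) between the 12w-res and 6w+dox groups (limma). The second of these was -0.069 with edgeR and -0.085 with DESeq2. Without 12w+dox replicate 1 the first was -1.61 (adjusted p = 0.00997), which made *Isl1* a call, and without 12w+dox replicate 2 it was -0.50 (adjusted p = 0.434).

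**Figure D3:**
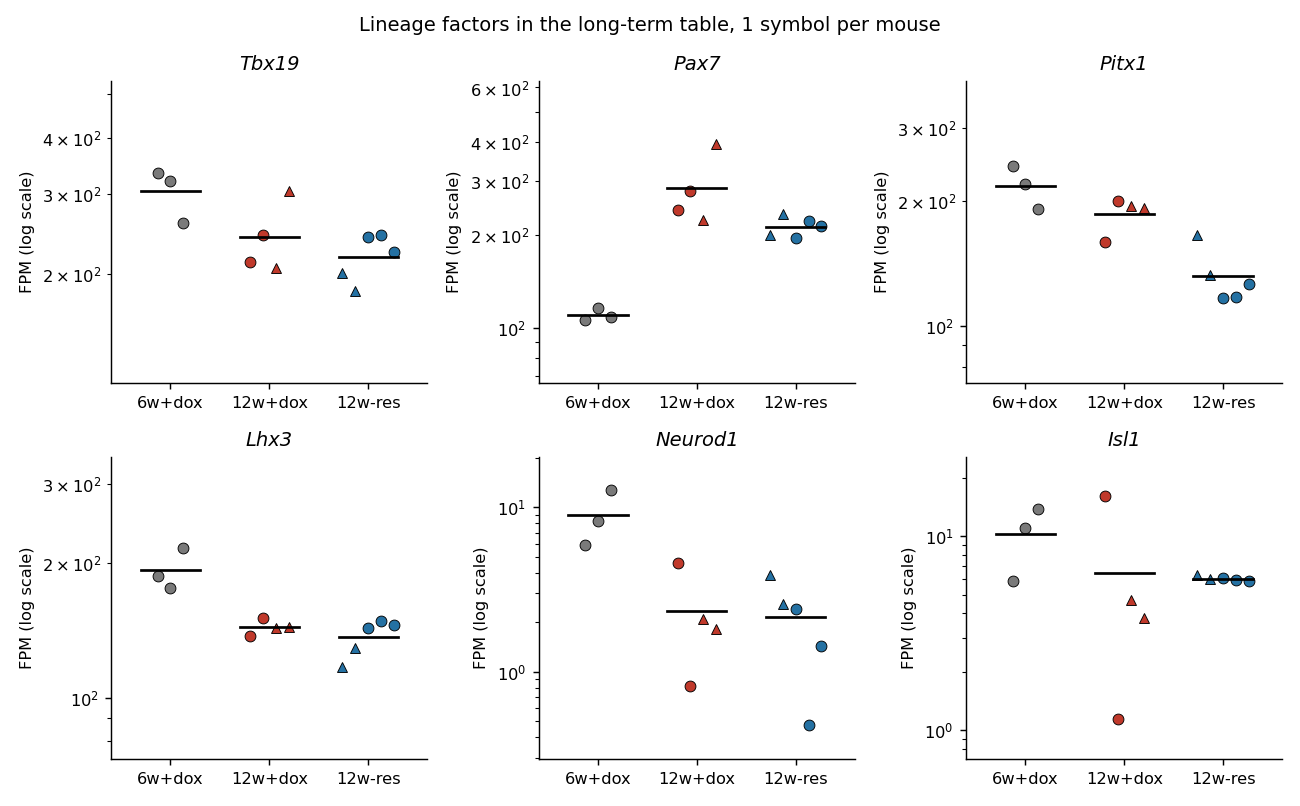
FPM on a log axis of the 6 transcription factor genes in each long-term mouse, with circles for females, triangles for males and lines for arithmetic means. *Pax7* is lowest in the 6w+dox mice (106 to 117), *Neurod1* is highest there (5.88 to 12.7), and *Isl1* spreads from 1.14 to 16.1 in the 12w+dox mice.

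The mouse with the highest *Isl1*, 12w+dox replicate 1, was also the highest of its group for several markers of other cells. Its summed somatotroph genes were at 7499.9 FPM (group median 2186), its *Prl* at 4940.4 FPM (median 276) and its *Cga* at 439.5 FPM (median 291). The gonadotroph genes were highest in replicate 3 (718 FPM), the stem cell genes in replicate 2 and the fibroblast genes in replicate 4. Such markers moved between groups as well. Between 6 and 12 weeks on dox, where 7.2% of all genes were called, *Gh*, *Ghrhr*, *Prl*, *Tshb*, *Trhr*, *Cga*, *Sox9*, *Aldh1a1*, *Plvap*, *Dcn* and *Lum* fell. So did the neural lobe genes (4 of 4), whose sum was 37.9 to 120.3 FPM in the 6w+dox mice and 2.94 to 5.55 FPM in the 12w+dox mice. Called were 2 of 4 fibroblast, 2 of 4 stem cell, 1 of 4 endothelial, 0 of 3 gonadotroph and 0 of 5 macrophage and leukocyte genes. The fibroblast genes *Col1a1* and *Col3a1* were not called. Their means were higher at 12 weeks (47.6 ± 32.0 and 51.8 ± 22.1 FPM) than at 6 weeks (34.7 ± 8.84 and 31.4 ± 7.32 FPM). Against the 6w+dox group, 0 of 4 endothelial genes and 2 of 4 fibroblast genes (*Col1a1* and *Col3a1*, higher) were called in the 12w-res group, with sums of 149 to 201 and 103 to 167 FPM in the 6w+dox mice. Of all genes 11.6% were called in this comparison. At an adjusted p alone 2 endothelial genes passed, both higher, where 33.8% of all genes passed. At an unadjusted p under 0.05 there were 3 endothelial genes, where 6740 of all 15315 genes were, and edgeR and DESeq2 called 0. Summed somatotroph genes were at 45903 to 80171 FPM in the 6w+dox mice, 933 to 7499.9 FPM in the 12w+dox mice and 6393 to 24762 FPM in the 12w-res mice. From the 12w+dox to the 12w-res group, where 11.3% of all genes were called, *Gh*, *Prl* and *Sox9* rose, as did 4 of 4 fibroblast and 3 of 4 endothelial genes. Fibroblast sums were 53.01 to 182 and 303 to 695 FPM, and endothelial sums 50.5 to 109 and 160.2 to 228 FPM. *Sox9* was 1 of 4 stem cell genes, of which *Sox2* had a lower mean after restoration (66.5 ± 9.73 and 50.6 ± 4.02 FPM). At an adjusted p alone 3 of 4 stem cell and 5 of 5 macrophage and leukocyte genes passed, all higher, where 37.8% of all genes passed. DESeq2 did not call *Prl* in this comparison or between the groups on dox. No listed marker was at 0 in a long-term mouse, and the 4 red blood cell genes were not analysed here. The part of these cells in the changes of the 7 genes was not tested.

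**Figure D4:**
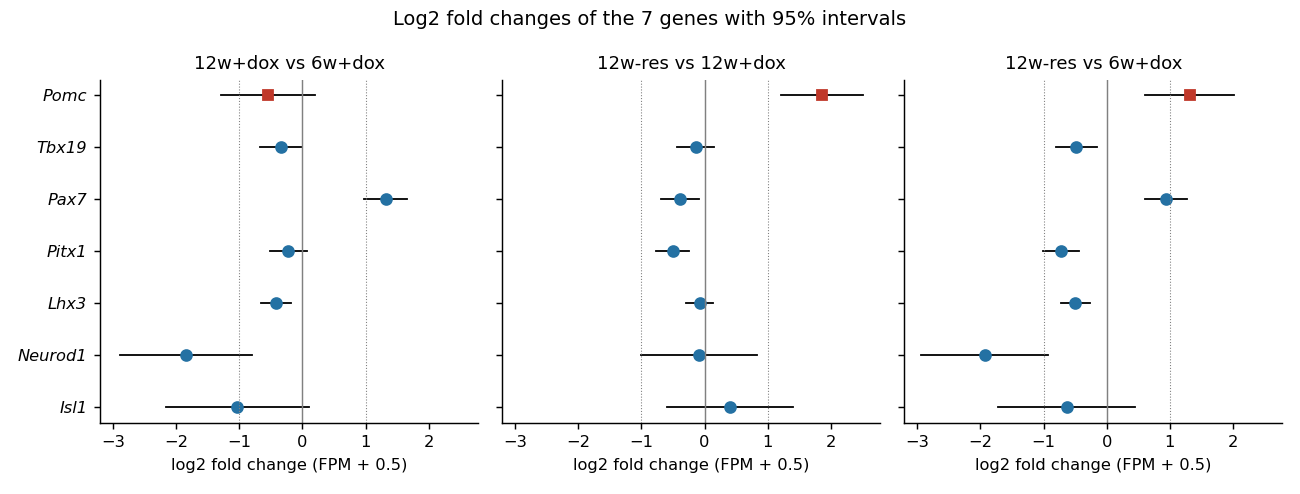
Log2 fold changes on the log2(FPM + 0.5) scale with 95% intervals of the 7 genes in the 3 long-term comparisons, which share groups. Intervals are from limma with a trended prior, except for *Pomc* (squares), whose intervals use the untrended prior, and dotted lines mark a log2 change of 1 in either direction. *Pomc* lies at 1.86 between the 12w-res and 12w+dox groups, where the 6 factors lie between -0.50 and 0.40.

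Of 25 other regulators of the POMC lineage, 22 were in the long-term table. Between 6 and 12 weeks on dox 0 rose and 2 fell, among them *Hes1*, or 2 of 22 where 7.2% of all genes were called. From the 12w+dox to the 12w-res group 1 rose (*Hes1*) and 1 fell (*Neurod4*), or 2 of 22 where 11.3% of all genes were called. From the 6w+dox to the 12w-res group 0 rose and 4 fell, among them *Nr4a2*, *Neurod4* and *Tcf3*, where 11.6% of all genes were called. *Hes1*, a Notch target, fell by 1.42 on the log2 scale (SE 0.254, adjusted p = 0.00219) between the groups on dox and rose by 1.19 on the log2 scale (SE 0.223, adjusted p = 0.000968) after restoration, with means of 11.5 ± 3.06, 4.01 ± 1.28 and 9.61 ± 1.86 FPM. *Nr4a2*, an orphan nuclear receptor that acts on *Pomc*, fell by 1.31 on the log2 scale (SE 0.332, adjusted p = 0.00788) between the 6w+dox and 12w-res groups. The median log2 change of the 22 genes was -0.32, -0.20 and -0.49 in the 3 comparisons, and that of all genes was -0.0063, -0.004 and -0.021.

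Levels of different genes were compared per kilobase of transcript. *Pomc* had 218368 ± 131209 FPM per kb in the 6w+dox group and 479293 ± 42689.9 in the 12w-res group, far above the factors. In the 6w+dox group the factors followed in the order *Tbx19* (115 ± 15 FPM per kb), *Pitx1* (88.8 ± 10.6), *Lhx3* (86.8 ± 9.21), *Pax7* (18.9 ± 0.918), *Isl1* (4.06 ± 1.59) and *Neurod1* (3.28 ± 1.26). *Pitx1* and *Lhx3*, and *Isl1* and *Neurod1*, lay closer together than their SDs. In the 12w-res group the order was *Tbx19* (82.1 ± 9.74 FPM per kb), *Lhx3* (61.5 ± 5.98), *Pitx1* (53.9 ± 8.22), *Pax7* (36.4 ± 2.7), *Isl1* (2.41 ± 0.0588) and *Neurod1* (0.788 ± 0.466).

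In the days after dox was withdrawn no call was made by limma for any of the 7 genes. It called 0 of 7 at 1 day, where 0.043% of all genes were called, 0 at 3 days (0.129%) and 0 at 5 days (0.193%), each against the same 16w+dox mice, and 0 between 5 days and 1 day (0.0143%). At an unadjusted p under 0.05 there were 1 (*Isl1*), 2 (*Neurod1* and *Lhx3*), 0 and 0 of the 7. Of all 13958 genes tested, 1823, 2323, 1889 and 883 were under it. edgeR called 0 of 7 in each, where it called 0.0358%, 0.107%, 0.229% and 0.0143% of all genes. DESeq2 called 1 at 1 day, *Isl1*, and 0 in the others, where it called 0.81%, 0.745%, 1% and 0.0502% of all genes. The groups did not overlap for 0, 2, 1 and 0 of the 7, against 11.2%, 21.6%, 19.3% and 7.8% of all genes.

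*Pomc* was lowest 3 days after withdrawal. It stood at 35872.5, 34394 and 36965 FPM in the 16w+dox mice and at 32143, 44553, 24313 and 38589 FPM in the 1d-dox mice. It stood at 23410.3, 28065 and 11837 FPM in the 3d-dox mice and at 40260.3, 39174 and 56502.5 FPM in the 5d-dox mice. All 3d-dox mice were below and all 5d-dox mice above the 16w+dox mice, and the 1d-dox mice lay on both sides. The log2 difference from the 16w+dox group was -0.07 (SE 0.429, adjusted p = 0.968) at 1 day, -0.85 (SE 0.458, adjusted p = 0.367) at 3 days and 0.32 (SE 0.458, adjusted p = 0.813) at 5 days (limma). The exact permutation p was 0.1 at 3 days and 0.1 at 5 days, the smallest that 3 mice against 3 allow.

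As a share of the summed gene signal *Pomc* took 12.7% ± 0.363 in the 16w+dox group (SD, n = 3), 12.3% ± 2.69 in the 1d-dox group (n = 4), 8.21% ± 2.91 in the 3d-dox group (n = 3) and 15.1% ± 2.38 in the 5d-dox group (n = 3). The difference from the 16w+dox group was -4.48 points at 3 days (exact permutation p = 0.1) and 2.44 points at 5 days (exact permutation p = 0.1). Of the 9 markers limma called 0 at each time (0.043%, 0.129% and 0.193% of all genes at 1, 3 and 5 days). At an unadjusted p under 0.05 there were 0, 5 and 1 of the 9, where 1823, 2323 and 1889 of all 13958 genes were. edgeR called 0 of the 9, and DESeq2 called 1 at 3 days, where it called 0.745% of all genes. *Scg5* differed by -0.62 (SE 0.1103, adjusted p = 0.0413) at 3 days, past the adjusted p and short of the fold.

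The factor genes with more reads stayed within narrow ranges. *Pax7* ran from 120.1 to 175 FPM in the 16w+dox mice and from 153 to 167 FPM in the 5d-dox mice, with 149 to 174 at 1 day and 129 to 171 at 3 days. *Tbx19* ran from 24.6 to 40.3 FPM in the 16w+dox mice and from 37.3 to 42.5 FPM in the 5d-dox mice, with 33.4 to 37.96 at 1 day and 33.7 to 41.8 at 3 days. *Pitx1* ran from 52.6 to 61.8 FPM in the 16w+dox mice and from 53.9 to 67.4 FPM in the 5d-dox mice. The 95% interval of the log2 difference at 5 days was -0.24 to 0.33 for *Pax7*, -0.064 to 0.54 for *Tbx19* and -0.15 to 0.29 for *Pitx1*. *Lhx3* stood at 34.9, 42.5 and 35.8 FPM in the 16w+dox mice and at 28.4, 32.9 and 30.4 FPM in the 3d-dox mice, which did not overlap and differed by -0.30 (SE 0.131, adjusted p = 0.271) with limma.

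**Figure D5:**
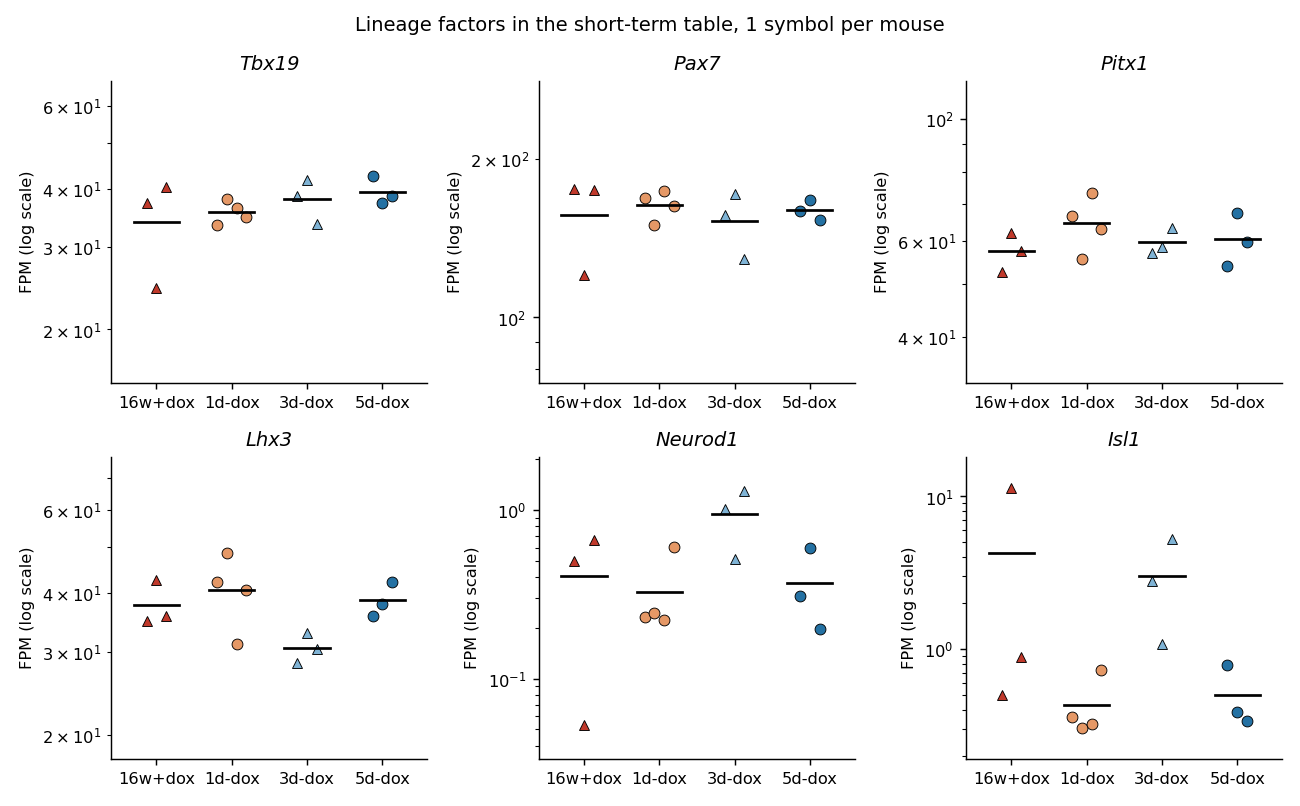
FPM on a log axis of the 6 transcription factor genes in each short-term mouse, with circles for females, triangles for males and lines for arithmetic means. *Isl1* reaches 11.4 FPM in 1 male at 16w+dox and 5.23 FPM in 1 male at 3d-dox, while no female exceeds 0.785 FPM.

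*Isl1* was uneven among the males. It stood at 0.499, 11.4 and 0.893 FPM in the 16w+dox mice and at 2.78, 1.08 and 5.23 FPM in the 3d-dox mice, all males. In the females it ran from 0.305 to 0.725 FPM at 1 day and from 0.338 to 0.785 FPM at 5 days. The log2 difference from the 16w+dox group was -1.48 (SE 0.6398, adjusted p = 0.341) at 1 day with limma, and -3.31 with DESeq2 (adjusted p = 0.0354). Without 16w+dox replicate 2 the limma value was -0.37 (adjusted p = 0.833). The high 16w+dox mouse, replicate 2, was also the lowest of its group for *Pax7*, *Tbx19* and *Neurod1* and the highest for *Prl* (93.5 FPM, group median 12.7) and *Cga* (51.1 FPM, median 7.38). It was the lowest for *Gh* (85.4 FPM), *Lhb* (1.95 FPM) and *Fshb* (0.882 FPM). Its *Gnrhr* was the highest of the group (18.4 FPM), and so was its sum of the 3 gonadotroph genes (21.3 FPM, median 17.9). The high 3d-dox mouse, replicate 3, was the lowest of its group for *Pomc*, *Tbx19* and *Pax7* and the highest for *Cga* (35.7 FPM) and the somatotroph genes (699 FPM). *Lhb*, a gonadotroph hormone gene, was lower by 2.57 on the log2 scale (SE 0.354, adjusted p = 0.0221) at 1 day with limma. It was higher by 1.91 on the log2 scale (SE 0.378, adjusted p = 0.0476) at 3 days, and was called lower again at 5 days. Its means were 4.23 (16w+dox) and 17.7 FPM (3d-dox) in the male groups. In the female groups they were 0.242 (1d-dox) and 0.204 FPM (5d-dox). The part of other pituitary cells in these values was not tested.

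*Neurod1* was close to the lower limit of the short-term libraries, at 0.499, 0.0535 and 0.664 FPM in the 16w+dox mice and 1.02, 0.5099 and 1.297 FPM in the 3d-dox mice, a log2 difference of 0.70 (SE 0.2905, adjusted p = 0.244) with limma. Of the other regulators of the lineage 21 were in the short-term table, and limma, edgeR and DESeq2 called 0 of them at each time. Of all genes limma called 0.043%, 0.129% and 0.193% at 1, 3 and 5 days. At an unadjusted p under 0.05 there were 8, 3 and 10 of the 21 (limma), where 1823, 2323 and 1889 of all 13958 genes were. The mice at 1 and 5 days were females, compared with males.

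The genes whose pattern over the 12 long-term mice was most like that of *Pomc* were *Mt3*, *Ephx4*, *Lgals1*, *Sec11c* and *Pcsk2*. Their root mean square differences from *Pomc* in centred log2 values were 0.241 to 0.278, where the median over 13878 genes was 0.9897. Over the 13 short-term mice they were 0.233 to 0.427, and no median over all genes was taken there. *Pcsk2* is the convertase named above, *Sec11c* codes for a signal peptidase subunit, and *Mt3* codes for a metallothionein. Most like *Pax7* were *Kcnc1*, *D130043K22Rik*, *Nipal3*, *Btbd7* and *Ccdc85c* (0.1797 to 0.2202, median 0.645), and most like *Tbx19* were *Elavl1*, *Mettl16*, *Smarca4*, *Lmf2* and *Syncrip* (0.1099 to 0.131, median 0.429). P-values weigh differences against the spread between the mice of these groups, with an exception for *Pomc* in trended limma. There the prior variance (56.9 long-term, 0.574 short-term) exceeded the residual variance between mice (0.255 and 0.163). Exact permutation p-values cannot go below a limit set by the group sizes.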

How the data were processed

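Per the study's methods, the authors mapped reads to mm10 with STAR, assigned them to RefSeq genes and removed genes with few reads. The deposited values are a signal, FPM scaled with DESeq2 size factors. Strand use in counting is not given in the sources used here. Of the values, 100% in each table were whole multiples of 1 read (within 0.1 read), so reads were recovered for the count tests. Left out were 2 unnamed lines (long-term) and 4 lines that name no gene (short-term, 68.8 to 75.0% of a library), and 0 per-sample columns went unused. Groups, replicate numbers and sex came from the labels. Replicates of a group differed by more than sampling noise.

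limma 3.58.1 (R 4.3.3) was fitted to log2(FPM + 0.5), all groups of a table together, with a trended prior variance, after a filter of 10 reads in over 50% of the samples of 1 group, with Benjamini-Hochberg adjustment over all genes tested. Fold changes on this scale understate changes of low genes. A call is an adjusted p under 0.05 with a log2 change over 1 in size. Alternatives were edgeR 4.0.16 and DESeq2 1.42.0 on recovered reads, other pseudocounts, scalings and filters, females only, a replicate block and left-out mice, and an untrended prior chosen after the data were seen. Tested on simulated data with 200 genes changed by a log2 value of 2, limma recovered 186 with 5 other calls among 15039 genes (12w+dox against 6w+dox), and 195 with 5 among 13678 (1d-dox against 16w+dox). The changed genes were drawn from those with a mean over 1 FPM, without *Pomc*. Recovery of smaller changes, of lower genes and of *Pomc* was not simulated. Exact two-sided permutation tests served for the *Pomc* share. Lengths were those of the longest coding transcript.

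The 7 genes and all gene lists were chosen with earlier results of these data known. Named besides the 7 are the called genes of each list or its most abundant ones, the 5 genes most like *Pomc*, *Tbx19* and *Pax7*, and *Rb1* and *GFP*. *Scg5* and *Cpe*, and the ratios within a mouse, were picked with their values in view. Some listed genes are not reported here.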

Additional observations from a re-analysis of the deposited data

Results flagged for a closer look

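In 24 sets of values of 4 or 5 mice, 3 had a mouse whose gap to the rest was large against the range of its group. Chance alone sets apart about 1 in 20 such sets. *Pitx1* in 12w+dox replicate 1 was 159 FPM, where the other mice of the group had 193 to 199.7 FPM. *Neurod1* in 1d-dox replicate 4 was 0.608 FPM, where the others had 0.224 to 0.244 FPM. *Isl1* in that same mouse was 0.725 FPM, where the others had 0.305 to 0.361 FPM.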

How the results depend on the processing

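Of 797 alternative values of 40 results, 747 kept direction and side of the threshold (counts: within 1.5 times). *Pomc* became a call between the 12w-res and 12w+dox groups with total reads (1.20), edgeR (1.82), DESeq2 (1.82) and the untrended prior (1.86), and between the 12w-res and 6w+dox groups with edgeR (1.15), DESeq2 (1.13) and the untrended prior (1.31). Without 1 mouse these ranged over 1.68 to 2.03 and 0.86 to 1.77. The number of the 7 genes called between the groups on dox was 1 with 10 reads required in every sample, with females only or with the replicate block, and without 1 mouse it ran from 1 (6w+dox replicate 2) to 3 (12w+dox replicate 1). Between the 12w-res and 12w+dox groups it was 3 with total reads, 2 at an adjusted p alone, and 1 with edgeR, DESeq2 or the untrended prior. Between the 12w-res and 6w+dox groups it was 5 at an adjusted p alone, 2 with total reads, edgeR, DESeq2 or the untrended prior, and 0 with 10 reads in every sample. At 1 day it was 1 with DESeq2. With total reads, 10492 of all 15315 genes had an unadjusted p under 0.05 between the 12w-res and 12w+dox groups (limma). The main fit had 7249. Against the 6w+dox group these were 7524 and 6740. Shares of all genes called were not taken for total reads, females only, the replicate block, 10 reads in every sample or left-out mice. In females only the *Pomc* share of the 12w-res group was higher by 20.3 points (12w+dox) and 19.5 points (6w+dox), each with an exact permutation p of 0.1, the smallest possible there. Signs turned for *Pitx1* between the groups on dox with total reads (0.11) or those without *Pomc* (0.031), and, between the 12w-res and 12w+dox groups, for *Tbx19* (0.048) and *Lhx3* (0.017) in females only and for *Isl1* with total reads (-0.19), edgeR (-0.069) and DESeq2 (-0.085). They also turned for *Isl1* at 3 days with edgeR (-0.47) and DESeq2 (-0.49). Leaving out 1 mouse turned signs within -0.40 to 0.25 for *Neurod1* (12w+dox replicate 1, 12w-res replicate 4) and -0.13 to 0.98 for *Isl1* (12w+dox replicate 2) between the 12w-res and 12w+dox groups, -0.39 to 1.39 for *Isl1* at 3 days (16w+dox replicates 1 and 3, 3d-dox replicate 3), -0.20 to 0.092 for *Pomc* at 1 day (1d-dox replicate 3) and -8.00 to 1.28 points for the *Pomc* share between the groups on dox (6w+dox replicate 1). The cause was not tested. Mice with the same replicate number showed no strong shared deviation (correlations of -0.21 to 0.24), and the main fit did not pair them. With few mice a group, this cannot show that no mice are paired. With the replicate block *Neurod1* changed by -1.60 between the groups on dox (adjusted p = 0.0509, limma), and no other call among the 7 genes was lost. The change of *Pomc* between the 12w+dox and 12w-res groups was 1.58 in females and 2.11 in males (interaction adjusted p = 0.999, limma). Few reads limit *Neurod1* and *Isl1* most.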
